A study of Mus musculus with 12 samples.

Results

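Neutrophil granule and identity genes were followed in RNA-seq of CD115+ monocytes from blood and spleen of mice with an intact or a resected liver. The 10 genes were set as a list of symbols, with earlier results of these data known, and fall into 3 classes. Mpo and Elane form the primary granule class, Ltf, Camp and Ngp the secondary granule class, and S100a8, S100a9, Retnlg, Csf3r and Ly6g the class of mature neutrophil genes. All 10 passed the filter on low counts, among 20135 features tested of 52553 in the files.

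Male C57BL/6 mice gave 4 groups of 3 libraries, and each library held cells pooled from 5 mice. The groups were blood monocytes of intact mice (spleen and liver in place), blood monocytes 24 h after removal of 70% of the liver (spleen in place), and splenic monocytes of the same 2 kinds of mice. Cells were taken from the mononuclear fraction of a density gradient and sorted with anti-CD115 magnetic beads. The spleen was digested with collagenase and its red cells were lysed beforehand, a step not described for blood, so tissue and cell preparation cannot be told apart. The labels name no sham operation for the intact mice, so surgery and the loss of liver mass cannot be told apart either. The p-values below measure the spread between pools only.

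Neutrophils fill their granules in the order in which they mature. Primary (azurophilic) granules with myeloperoxidase and elastase are made by promyelocytes, secondary (specific) granules with lactoferrin and cathelicidin by myelocytes and metamyelocytes, and transcripts such as Retnlg and Ly6g mark late stages. S100a8, S100a9 and Csf3r are also expressed by monocytes, and early myeloid progenitors that give rise to monocytes also make Mpo and Elane, so none of these genes is private to 1 cell stage.

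Library totals ran from 36990033 to 46401368 counts. The lowest count of any of the 10 genes was 8, for Elane in a blood library of intact mice, so no gene was at the level of 3 counts in any library. Levels are given as CPM, counts scaled to a common library size by the trimmed mean of M-values (TMM). A gene was called when its log2 fold change exceeded 1 in either direction with an adjusted p under 0.05. Csf1r, which encodes CD115, was at 346.5 ± 129.9 CPM in intact blood, 666.1 ± 60.3 in resected blood, 452.7 ± 75.5 in intact spleen and 898 ± 302.6 in resected spleen (SD, n = 3). The summed level of 8 monocyte markers ranged from 730.6 CPM to 4585 CPM over the 12 libraries. Haemoglobin genes took 13.2% to 34.2% of the counts in blood and 0.0814% to 3.47% in spleen. The third library of intact blood stood apart, with the lowest monocyte sum and a summed level of 1264 CPM for 5 progenitor and proliferation genes, against 87.33 and 68.81 CPM in the other libraries of that group. In bulk samples such as these, fewer cells of a type and less RNA per cell cannot be told apart.

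The secondary class and the S100 pair are shown by the sequence before their start sites. The members of each lie on the same chromosome, and all were called higher in blood after resection. The start sites of Camp, Ngp and Ltf lay within 1170 kb of each other on chromosome 9, and those of S100a8 and S100a9 were 26.6 kb apart on chromosome 3. The sequences are the 250 bases before each start site, from the RefSeq promoter table on GRCm38.p6: Ltf at chr9:111019042-111019291 (plus strand), Camp at chr9:109849457-109849706 (minus strand), Ngp at chr9:110419558-110419807 (plus strand), S100a8 at chr3:90668821-90669070 (plus strand) and S100a9 at chr3:90695722-90695971 (minus strand). Capitals mark a C/EBP-type core, TTGCNNAA on either strand (TTNNGCAA on the other).
Ltf: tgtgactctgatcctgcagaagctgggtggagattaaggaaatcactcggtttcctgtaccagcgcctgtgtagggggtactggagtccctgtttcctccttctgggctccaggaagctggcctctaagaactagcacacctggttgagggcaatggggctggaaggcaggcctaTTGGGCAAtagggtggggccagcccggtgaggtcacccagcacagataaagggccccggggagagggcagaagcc
Camp: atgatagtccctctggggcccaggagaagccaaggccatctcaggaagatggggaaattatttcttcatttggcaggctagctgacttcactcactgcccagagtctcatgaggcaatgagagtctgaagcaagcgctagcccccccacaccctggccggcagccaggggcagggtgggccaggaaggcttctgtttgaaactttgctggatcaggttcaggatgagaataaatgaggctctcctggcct
Ngp: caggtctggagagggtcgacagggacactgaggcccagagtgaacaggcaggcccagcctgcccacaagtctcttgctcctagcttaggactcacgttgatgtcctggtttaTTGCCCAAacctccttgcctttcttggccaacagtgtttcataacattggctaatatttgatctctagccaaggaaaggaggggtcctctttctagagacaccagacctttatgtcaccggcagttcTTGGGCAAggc
S100a8: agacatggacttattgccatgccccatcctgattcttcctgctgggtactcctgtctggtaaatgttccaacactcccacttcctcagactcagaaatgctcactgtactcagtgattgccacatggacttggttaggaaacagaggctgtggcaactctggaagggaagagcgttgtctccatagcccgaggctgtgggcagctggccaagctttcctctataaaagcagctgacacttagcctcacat
S100a9: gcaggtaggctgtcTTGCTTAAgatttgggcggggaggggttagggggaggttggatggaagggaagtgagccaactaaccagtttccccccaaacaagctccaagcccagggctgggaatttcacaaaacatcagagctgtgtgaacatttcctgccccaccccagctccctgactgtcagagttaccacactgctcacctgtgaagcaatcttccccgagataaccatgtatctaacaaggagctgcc

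Ltf held 1 match that began 75 bases before the start site, and Ngp held 2, beginning 138 and 11 bases before it. S100a9 held 1 match 236 bases before its start, and Camp and S100a8 held none. Of the 10 genes, 5 held a match in a 300-base window, the others being Retnlg and Ly6g. Ly6g had a further window, at another start site, without a match. The same letters stood in 10.8% of the 32851 windows of the table, a share counted per window and not per gene. A match describes letters only and shows no binding.

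In blood, all 10 genes rose after resection. The share of counts that the 10 genes took went from 0.0146% to 0.0439% in the 3 intact libraries to 0.274% to 1.39% in the 3 resected libraries. All 10 genes were called higher, where 7.8% of all features tested were, and in all 10 the resected libraries lay above every intact library, which held for 19.4% of all features. The median log2 fold change was 2.91 over the primary class, 3.00 over the secondary class and 5.31 over the mature class, against -0.10 over all features. Over the other genes of these classes, listed below, it was 2.61, 4.99 and 4.7, so the mature class was not above the secondary class there.

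**Figure D1:**
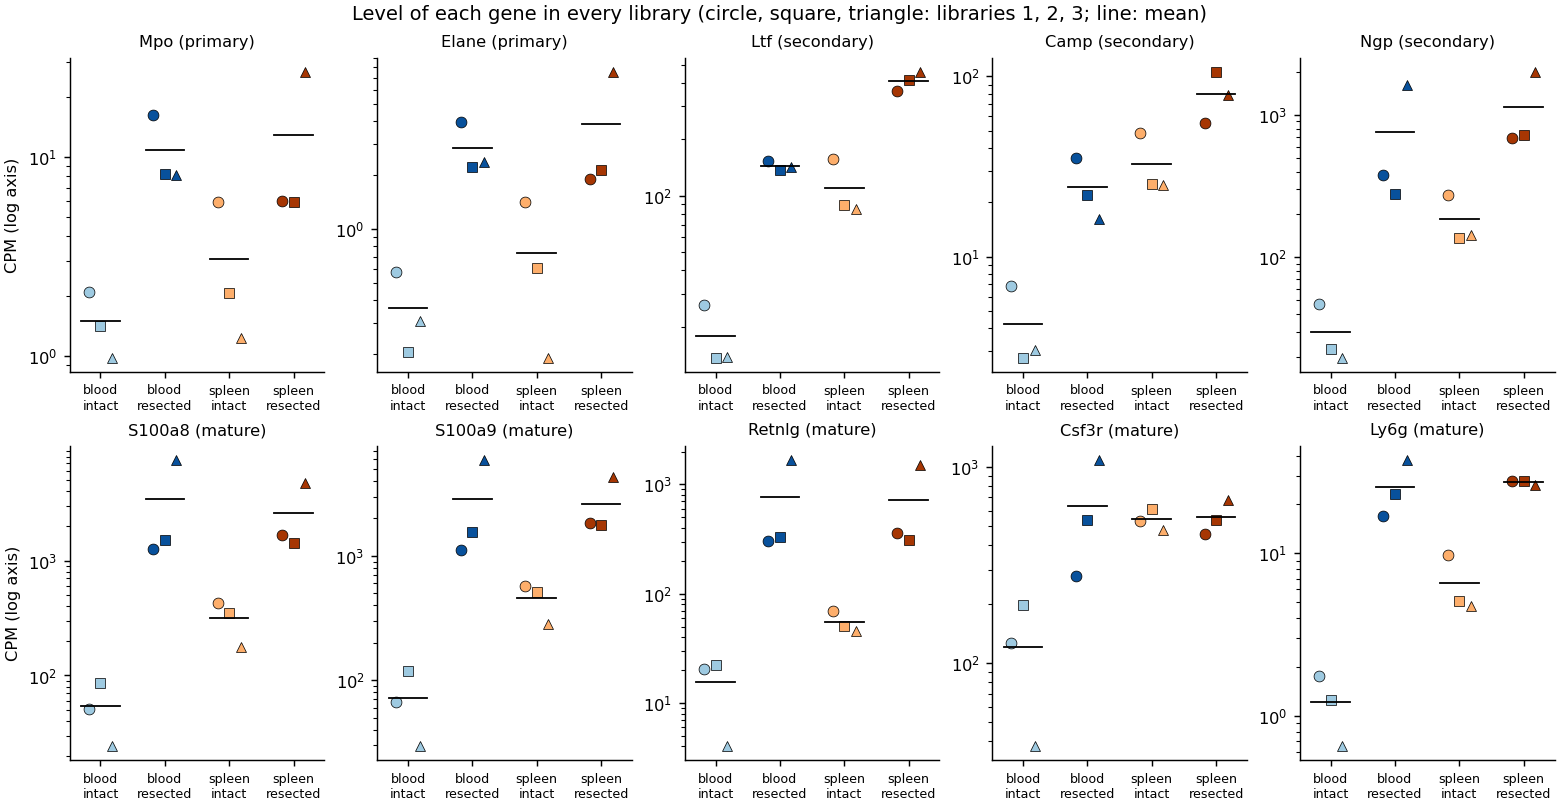
Level of each of the 10 genes in every library, in CPM on a log axis that differs between panels, by group; each symbol is 1 library and the line is the mean of 3. Intact blood was the lowest group for every gene by its mean, and the third resected libraries (triangles) were the highest of their groups for Ngp, S100a8, S100a9, Retnlg and Csf3r.

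Mpo, the myeloperoxidase of primary granules, was at 2.092, 1.413 and 0.983 CPM in the intact blood libraries and at 16.2, 8.186 and 8.134 CPM in the resected ones. The groups did not overlap, and the highest resected library was the first. Its log2 fold change was 2.86 (standard error, SE, 0.77 and adjusted p = 0.0264). Elane, the neutrophil elastase, went from 0.578, 0.2055 and 0.3058 CPM to 3.936, 2.208 and 2.364 CPM, again with the first resected library highest. Its log2 fold change was 2.96 (SE 0.82, adjusted p = 0.0289). Both primary genes were at the lower end of expression, with 8 to 76 counts in intact blood. Their calls were the least secure, since they were lost without any 1 of the 3 resected libraries and without the second or the third intact library, with adjusted p up to 0.0759 for Mpo and 0.0891 for Elane.

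Ltf encodes lactoferrin, the iron-binding protein of secondary granules. It was at 26.31, 13.72 and 13.78 CPM in intact blood and at 152.8, 136.5 and 141.8 CPM in resected blood. The resected libraries were close together, and all lay far above the highest intact one. Ltf rose by 3.00 on the log2 scale (SE 0.32, adjusted p = 0.00067). Camp, the cathelicidin antimicrobial peptide, went from 6.826, 2.749 and 3.015 CPM to 35.15, 22.05 and 16.07 CPM, a log2 fold change of 2.54 (SE 0.47, adjusted p = 0.00551). Ngp, the neutrophilic granule protein, went from 46.95, 22.58 and 19.75 CPM to 381.3, 276.4 and 1626 CPM. All resected libraries exceeded all intact ones, and the third resected library lay far above the other two. Ngp rose by 4.68 (SE 0.81, adjusted p = 0.00434), and by 3.48 with an adjusted p of 0.00464 when the third resected libraries of both tissues were left out.

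S100a8 and S100a9 encode the subunits of calprotectin, an abundant cytosolic protein of neutrophils. S100a8 was at 51.14, 86.64 and 24.51 CPM in intact blood and at 1249, 1519 and 7421 CPM in resected blood, the largest log2 fold change of the 10 genes at 5.97 (SE 0.95, adjusted p = 0.00311). S100a9 was at 66.25, 118.8 and 29.66 CPM in intact blood and at 1109, 1568 and 5866 CPM in resected blood, with a log2 fold change of 5.31 (SE 0.83, adjusted p = 0.00297). In both genes the third resected library was several times higher than the others and the third intact library was the lowest. Without the third resected libraries of both tissues the fold changes were 4.69 (adjusted p = 0.0036) and 4.24 (adjusted p = 0.00487).

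Retnlg, a resistin-like gene of mature neutrophils, went from 20.28, 22.25 and 4.063 CPM to 304.8, 332.7 and 1658 CPM in blood. The same libraries stood out, the third intact one low and the third resected one high. Retnlg rose by 5.62 (SE 1.03, adjusted p = 0.00543), and by 4.36 with an adjusted p of 0.00595 without the third resected libraries of both tissues. Ly6g, which encodes the antigen used to sort mouse neutrophils, went from 1.761, 1.259 and 0.6553 CPM to 16.97, 23.03 and 37.32 CPM, a log2 fold change of 4.40 (SE 0.47, adjusted p = 0.00067). Ly6g is 1 of a family of related Ly6 genes, and how any shared reads were divided among them is not given in the sources used here. Csf3r, the receptor for granulocyte colony-stimulating factor, went from 127.4, 197.3 and 38.01 CPM to 277.1, 539.4 and 1080 CPM. Csf3r had the smallest change of the 10, with a log2 fold change of 2.39 (SE 0.59, adjusted p = 0.0198). Its call was lost without the third resected library, without the first intact library and in a fit of the blood libraries alone (adjusted p = 0.0918).

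Markers of other cells moved with these genes in blood. Of 8 monocyte markers, Cd14 and F13a1 were called higher and Cx3cr1 lower, and their summed level was 730.6 to 2093 CPM in intact and 2659 to 4585 CPM in resected blood. Of 5 red pulp macrophage markers, 4 were called higher (Hmox1, Slc40a1, Spic and Vcam1), where 7.8% of all features were. The summed level of the 5 was 68.78 to 371.9 CPM in intact and 1099 to 1402 CPM in resected blood. Hmox1 (mean 697.4 CPM) and the uncalled Cd5l (529.4 CPM) were by far the highest of them in resected blood. Spic and Vcam1 were at 3.978 and 3.547 CPM there, against 98.22 and 955 CPM in resected spleen. Of 5 myeloid progenitor and proliferation markers, Kit was called higher at 1.45 (SE 0.29, adjusted p = 0.00785), in 21 of 22 fits. Cd34 (1.31, adjusted p = 0.114) and Top2a (-2.64, adjusted p = 0.118) had an unadjusted p under 0.05, and the sums of this list overlapped between the groups. Top2a was at 234.3 ± 365.4 CPM in intact and 37.53 ± 1.38 CPM in resected blood (SD, n = 3). Of 5 T-cell markers, 4 were called lower (Cd247, Cd3d, Cd3e and Cd3g), where 1231 of 20135 features were. Their list summed to 440.5 to 1050 CPM in intact and 108.7 to 193.5 CPM in resected blood. In edgeR's test 0 of 5 eosinophil, 0 of 5 basophil, 0 of 6 B-cell and 0 of 7 erythroid markers were called, with 2, 1, 0 and 0 at an unadjusted p under 0.05, and DESeq2 called 1 eosinophil marker higher and 1 basophil marker lower. The part of these cells in the rise of the granule genes was not tested. Relative to Csf1r, the ratio of S100a8 to Csf1r within a library was 0.109 to 0.239 in intact and 2.08 to 10.3 in resected blood.

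In spleen the same genes were mostly higher after resection, but few passed the test. Ltf and Ly6g were called higher, 2 of 10 where 0.78% of all features were. In 8 of 10 genes the resected libraries lay above every intact one, which held for 17.4% of all features, and 9 had an unadjusted p under 0.05 with a higher level, against 11.5% of all features. The median log2 fold change over the 10 genes was 2.22, against 0.05 over all features. DESeq2 on the same counts called 9 of 10 higher, all but Csf3r, where it called 2.94% of 32952 features fitted higher.

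**Figure D2:**
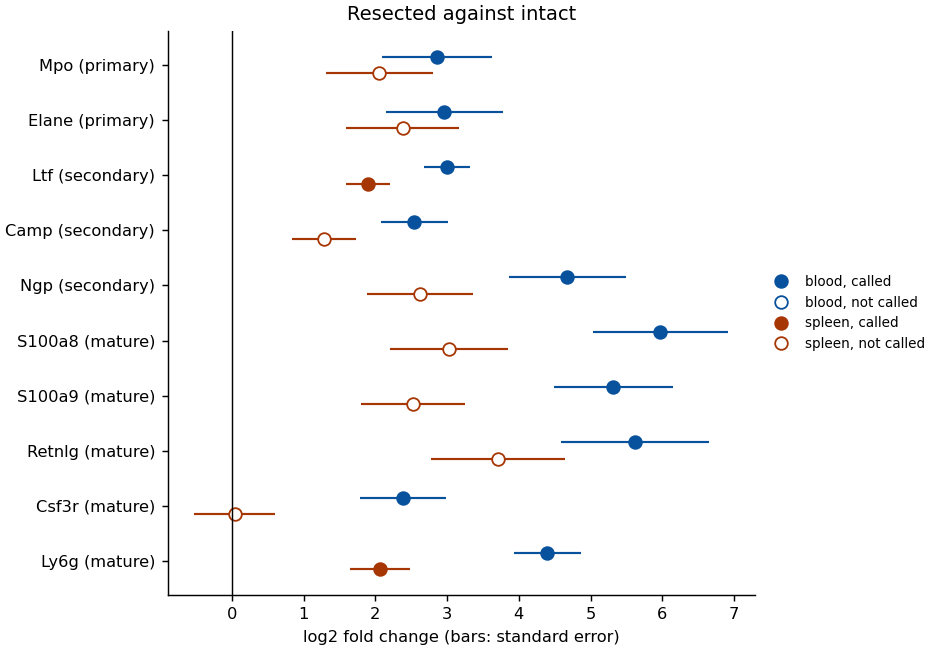
Log2 fold change of each gene, resected against intact, in blood and in spleen; bars are the standard error, filled points were called and open points were not. Every blood estimate lay to the right of its spleen estimate, and Csf3r in spleen was at 0.04.

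Ltf was at 156.4, 89.29 and 84.66 CPM in intact spleen and at 359.8, 413.5 and 454.6 CPM in resected spleen. No libraries overlapped and the 3 resected ones were close together. It rose by 1.89 (SE 0.30, adjusted p = 0.0253). Ly6g went from 9.764, 5.072 and 4.767 CPM to 27.93, 27.99 and 26.4 CPM, with the smallest spread among resected libraries of all 10 genes, and rose by 2.07 (SE 0.42, adjusted p = 0.0416). Both calls were close to the threshold: Ltf was called in 5 and Ly6g in 2 of the 12 fits that each left out 1 library, with adjusted p up to 0.145 and 0.198. The third library of intact blood is in neither group compared, but shares their filter, scaling and spread estimate. Without it, the count of calls in spleen was 4. It was 0 without any 1 of the intact spleen libraries, without the second or the third resected spleen library, and without the first or second resected blood library. It was 0 also without the third resected libraries of both tissues.

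The other secondary genes were higher in every resected spleen library without passing the test. Camp was at 48.4, 25.11 and 24.79 CPM in intact and at 55.21, 105.2 and 79.13 CPM in resected spleen, with a log2 fold change of 1.28 (SE 0.44, adjusted p = 0.14). Ngp was at 274.3, 137.2 and 143.8 CPM in intact and at 693.9, 723.3 and 1992 CPM in resected spleen, with a log2 fold change of 2.62 (SE 0.74, adjusted p = 0.0918). As in blood, the third resected library was the highest for Ngp but not for Camp.

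The calprotectin genes had the same layout in spleen. S100a8 was at 430.2, 347 and 176.6 CPM in intact and at 1652, 1427 and 4707 CPM in resected spleen, with a log2 fold change of 3.03 (SE 0.82, adjusted p = 0.0842). S100a9 was at 574.2, 515.4 and 283.9 CPM in intact and at 1837, 1767 and 4284 CPM in resected spleen, with a log2 fold change of 2.52 (SE 0.73, adjusted p = 0.0972). Their groups did not overlap, and the spread within the resected group exceeded the distance between the lower resected libraries and the intact ones. Retnlg, at 69.82, 50.37 and 45.23 CPM in intact and at 358.7, 312.7 and 1492 CPM in resected spleen, had the largest estimate in this tissue at 3.71 (SE 0.94, adjusted p = 0.0705). Without the third resected libraries of both tissues the estimates in spleen were 2.27 for S100a8, 1.97 for S100a9, 2.60 for Retnlg and 1.93 for Ngp.

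Csf3r stood apart from the rest in spleen. It was at 531.5, 612.7 and 476.3 CPM in intact and at 455.3, 534.2 and 681.1 CPM in resected spleen, and the groups overlapped. The log2 fold change was 0.04 (SE 0.57, adjusted p = 0.981), while S100a8 from the same libraries had an estimate of 3.03. Within a library the ratio of Csf3r to S100a8 fell from 1.24 to 2.7 in the 6 intact libraries of both tissues to 0.145 to 0.374 in the 6 resected ones, with no overlap.

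The primary genes had their highest value in the third resected spleen library. Mpo was at 5.934, 2.066 and 1.234 CPM in intact and at 6.025, 5.917 and 26.52 CPM in resected spleen, and the groups overlapped, since the first intact library was above the second resected one. Elane was at 1.41, 0.6053 and 0.1915 CPM in intact and at 1.892, 2.14 and 7.498 CPM in resected spleen. The log2 fold changes were 2.06 (SE 0.74, adjusted p = 0.154) and 2.38 (SE 0.79, adjusted p = 0.128). Without the third resected libraries of both tissues they were 0.95 and 1.44. The ratio of Mpo to Elane within a library was 2.77 to 6.88 over all 12 libraries. In resected spleen the 5 progenitor and proliferation markers summed to 263.1, 633.2 and 534.7 CPM. The proliferation genes Mki67 and Top2a averaged 324 and 94.77 CPM there, against 27.55 for Kit, 29 for Flt3 and 1.658 for Cd34. Of the 8 monocyte markers 0 were called in spleen by edgeR, with 3 at an unadjusted p under 0.05 and 1 called lower by DESeq2. The 3 went different ways, with log2 fold changes of 0.99 for Csf1r, -1.09 for Ccr2 and -2.22 for Cx3cr1. The sum of the 8 markers was 1642 to 1918 CPM in intact and 2702 to 3366 CPM in resected spleen. Nr4a1 alone averaged 656.8 CPM in intact and 1318 CPM in resected spleen. Of 5 red pulp macrophage markers Hmox1 was called higher, with sums of 1013 to 1536 CPM and 2003 to 3680 CPM. The 7 erythroid markers summed to 711.4 to 3357 CPM in intact and 7503 to 32686 CPM in resected spleen. edgeR called 0 of them, with 7 at an unadjusted p under 0.05 and log2 fold changes of 2.46 to 3.42, and DESeq2 called all 7 higher. The B-cell markers summed to 4055 to 4599 CPM and 1141 to 3508 CPM, with 0 of 6 called by edgeR, 2 at an unadjusted p under 0.05 and 1 called lower by DESeq2. The T-cell markers summed to 72.06 to 168.6 CPM and 27.36 to 52.69 CPM, with 0 of 5 called by edgeR, 5 at an unadjusted p under 0.05 and 3 called lower by DESeq2. Of the progenitor, eosinophil and basophil markers edgeR and DESeq2 called 0, with 0 at an unadjusted p under 0.05. The part of these cells in the levels of the granule genes was not tested.

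Blood and spleen differed in intact mice. All 10 genes had lower estimates in intact blood than in intact spleen, and 5 were called lower (Ltf, Camp, S100a9, Csf3r and Ly6g), where 3.49% of all features were. In 8 of 10 genes every blood library lay below every spleen library, against 20.9% of all features. These libraries also serve as the controls of the resection comparisons, so the comparisons are not independent. Ltf was lower by 6.14-fold (log2 fold change -2.62, SE 0.31, adjusted p = 0.00196) and Camp by 7.82-fold (-2.97, SE 0.47, adjusted p = 0.00643). Ly6g differed by -2.42 (SE 0.43, adjusted p = 0.0102). S100a9 differed by -2.68 (adjusted p = 0.0488) and Csf3r by -2.16 (adjusted p = 0.0483), and these calls held in 5 and 3 of 22 fits.

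Ngp (-2.64, adjusted p = 0.0533), S100a8 (-2.56, adjusted p = 0.0777) and Retnlg (-1.83, adjusted p = 0.224) had non-overlapping libraries without passing the test. Mpo (-1.04, SE 0.73) and Elane (-1.02, SE 0.77) overlapped between the tissues. Markers of other cells moved with this difference. In intact blood 4 of 5 red pulp macrophage markers were called lower (Hmox1, Slc40a1, Spic and Vcam1), as were the eosinophil genes Ccr3 (-5.12) and Prg2 (-2.76) and the progenitor genes Kit (-2.57) and Flt3 (-1.89). All 5 T-cell markers (the 4 above and Lat) were called higher, as were 5 of 7 erythroid genes (Alas2, Hba-a1, Hba-a2, Hbb-bs and Hbb-bt), with log2 differences of 7.26 to 7.76. Of 6 B-cell markers edgeR called 0, with 4 at an unadjusted p under 0.05, and DESeq2 called 4 lower. The part of these cells was not tested.

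After resection, 2 genes of the secondary class were called between the tissues and no gene of the other classes was. Ltf averaged 143.7 ± 8.29 CPM in resected blood and 409.3 ± 47.6 CPM in resected spleen (SD, n = 3), a difference of -1.51 on the log2 scale (SE 0.30, adjusted p = 0.00843). Camp was at 24.42 ± 9.76 and 79.84 ± 25 CPM, a difference of -1.71 (SE 0.45, adjusted p = 0.0263). These 2 of 10 genes were called lower in blood, where 6.87% of all features were, and they were also the 2 with non-overlapping libraries, against 25.1% of all features. The Ltf call was lost without the second or the third resected blood library, with an adjusted p up to 0.0542, and the Camp call without either of these or without the second or the third resected spleen library, with an adjusted p up to 0.124. Beside them, Slc40a1, Spic and Vcam1 of the red pulp macrophage list, Kit and Flt3 of the progenitor list, the eosinophil gene Ccr3 (-7.05) and the monocyte gene Nr4a1 were called lower in resected blood. All 5 T-cell markers, the same 5 erythroid genes and the monocyte genes Ccr2 and F13a1 were called higher there, and the part of these cells was not tested.

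The mature class had no such difference that the data could show. S100a8 differed by 0.39 (SE 0.76), S100a9 by 0.12 (0.69), Retnlg by 0.09 (0.84), Csf3r by 0.18 (0.57) and Ly6g by -0.09 (0.40), and in each the groups overlapped. The estimate for Ly6g changed sign with the scaling and was 0.02 with RLE factors. With standard errors of this size a difference of 1 log2 unit in S100a8, S100a9 or Retnlg was not detectable. Ngp differed by -0.58 (SE 0.70), and the primary genes Mpo and Elane by -0.24 (0.71) and -0.44 (0.75).

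**Figure D3:**
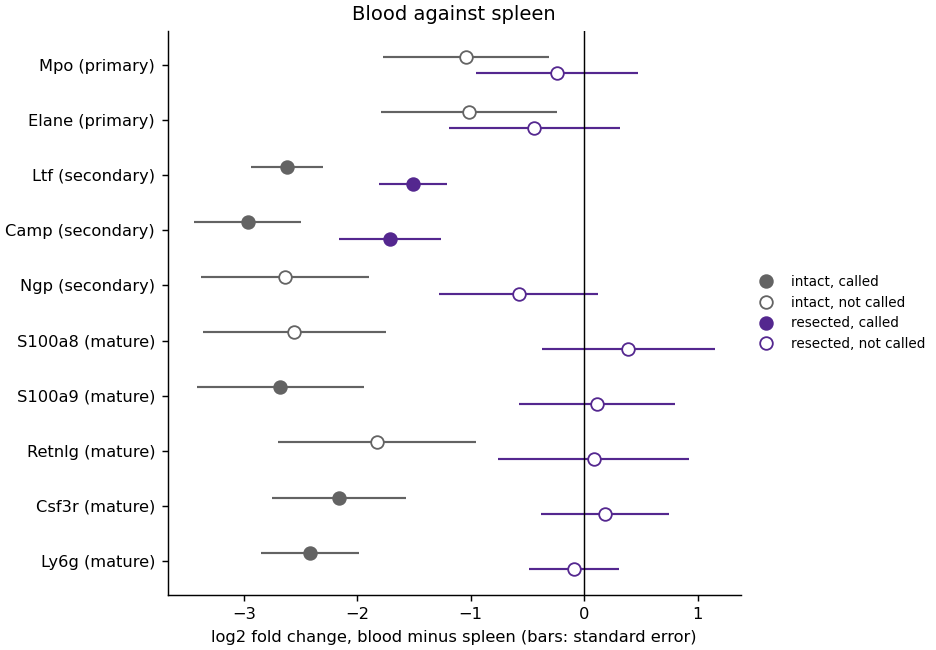
Log2 difference, blood minus spleen, of each gene in intact mice and after resection; bars are the standard error, filled points were called and open points were not. In intact mice all 10 points lay below 0, and after resection Ltf and Camp alone were called.

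The resection effect was larger in blood than in spleen for each of the 10 genes by its estimate, but none of these differences passed the test. The differences of the log2 fold changes ran from 0.58 for Elane to 2.94 for S100a8, with a median of 1.99 against -0.12 over all features. In edgeR's interaction test 0 of 10 genes were called higher, against 0.219% of all features, and 5 had an unadjusted p under 0.05, against 7.74%. Ly6g came closest, with a difference of 2.33 (SE 0.58, adjusted p = 0.129). DESeq2 called 3 of them (S100a9, Csf3r and Ly6g, adjusted p = 0.0425, 0.0449 and 0.0044), where it called 1.98% of all features higher.

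The genes of 1 class did not move in step in every library. The ratio of Ngp to Ltf, both secondary granule genes, lay between 1.43 and 2.5 in 10 libraries, but was 11.5 in the third resected blood library and 4.38 in the third resected spleen library. Ltf itself was at 141.8 and 454.6 CPM in these libraries, close to the other resected libraries of its tissue. The ratio of S100a8 to Ltf was 52.3 and 10.4 in the same libraries, against 8.17 and 11.1 in the other resected blood libraries and 4.59 and 3.45 in the other resected spleen libraries. The ratio of Retnlg to Ly6g, both of the mature class, was 44.4 and 56.5 in them, against 6.2 to 18 in the other 10. In both tissues Ngp, S100a8, S100a9, Retnlg and Csf3r were highest in the third resected library, while Camp was not. In the third resected libraries B-cell markers summed to 701.2 CPM in blood and 1141 CPM in spleen, the lowest of each resected group. Eosinophil markers were also the lowest there, at 12.81 and 46.21 CPM. Monocyte markers were the highest of the resected group in blood (4585 CPM) and the lowest in spleen (2702 CPM). The part of the cell makeup of these libraries in these levels was not tested.

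**Figure D4:**
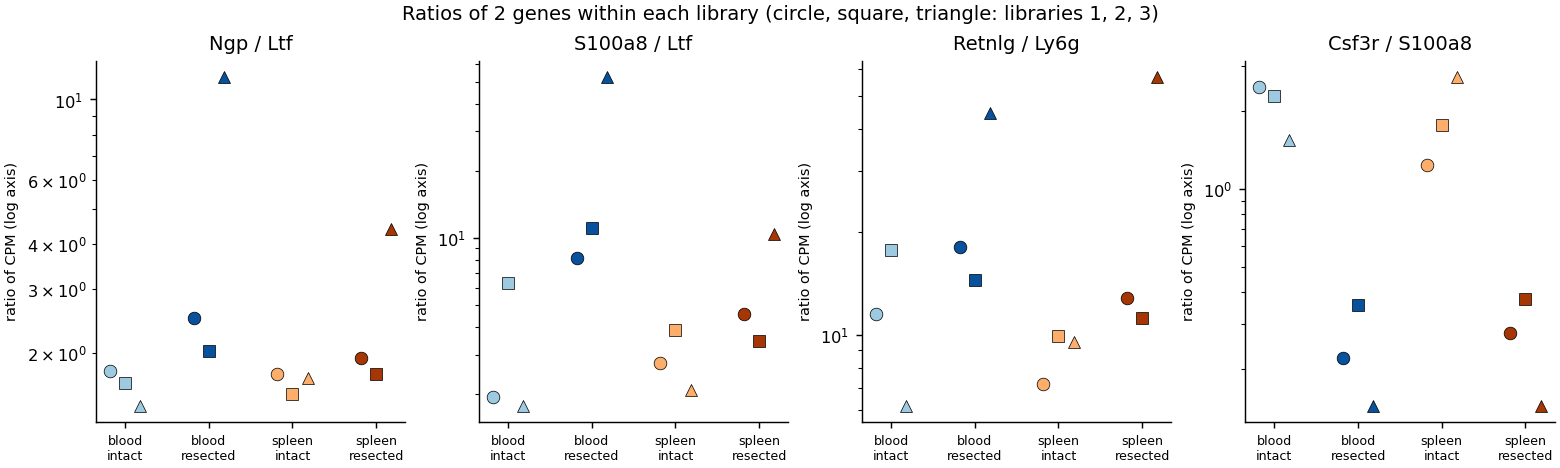
Ratio of the CPM of 2 genes within each library, on log axes, by group; each symbol is 1 library. The third resected libraries of blood and spleen (triangles) stand above all others for Ngp over Ltf and Retnlg over Ly6g, and the ratio of Csf3r to S100a8 separates the 6 intact from the 6 resected libraries.

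The ratio of S100a8 to S100a9 was 0.622 to 0.826 in the 6 intact libraries and 0.807 to 1.27 in the 6 resected ones, and the ranges overlapped. The ratio of Camp to Ltf was 0.281 to 0.309 in intact spleen and 0.153 to 0.254 in resected spleen. The mature class made up 71.9% to 91.3% of the summed CPM of the 10 genes in intact blood, 83.4% to 90% in resected blood, 76.9% to 85.8% in intact spleen and 76.5% to 81.4% in resected spleen. The primary class was under 1% of that sum in all 12 libraries. Per kilobase of exon (lengths from GENCODE vM21), the mean level in resected blood was 6988 CPM for S100a8, 5456 for S100a9, 1290 for Retnlg, 622.8 for Ngp, 180.3 for Csf3r, 51.31 for Ltf, 32.22 for Camp, 27.36 for Ly6g, 3.733 for Mpo and 2.882 for Elane. In intact spleen the order began with S100a9 at 877.1 CPM per kilobase and S100a8 at 654.2, followed by Csf3r at 154.1 and Ngp at 151.5, which did not differ beyond their spread.

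Other genes of the same classes were listed for comparison. These lists were chosen with earlier results of these data known, so their counts are not independent support. In blood, all 8 other secondary granule genes (Cd177, Chil3, Hp, Itgb2l, Lcn2, Mmp8, Olfm4 and Pglyrp1) and all 13 other mature neutrophil genes (Asprv1, Clec4d, Cxcr2, Fpr1, Fpr2, G0s2, Hdc, Il1r2, Mmp25, Mmp9, Padi4, Stfa2l1 and Trem1) were called higher, where 7.8% of all features were. Over 22 fits with other settings or fewer libraries, 6 to 8 and 12 to 13 were. Whether these transcripts came from neutrophils or from the sorted monocytes was not tested. Of 4 other primary granule genes tested (Bpi did not pass the filter), Prtn3 and Ms4a3 were called higher. Prtn3, which encodes proteinase 3, went from 1.476 ± 0.263 to 47.35 ± 6.26 CPM (SD, n = 3) and rose by 5.00 (SE 0.66, adjusted p = 0.0015), above the estimates of Mpo and Elane, a difference that was not tested. Lcn2, the secondary granule siderophore-binding protein lipocalin 2, went from 8.073 ± 2.48 to 1333 ± 1578 CPM and had the largest log2 fold change of these lists at 7.37 (SE 1.09, adjusted p = 0.00233). Among the mature genes, Asprv1 had the largest at 6.61 (adjusted p = 0.00274), and Padi4, the peptidylarginine deiminase of neutrophil extracellular traps, the smallest standard error at 3.10 (0.37, adjusted p = 0.00112). Prss57 was at -2.45 (SE 1.28, adjusted p = 0.199), with 5.445 ± 8.85 CPM in intact and 0.997 ± 0.278 CPM in resected blood. The other primary granule genes summed to 17.43 CPM in the third intact blood library, against 2.532 and 1.773 CPM in the others of that group.

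In spleen, 0 of the 8 other secondary genes, 1 of the 13 other mature genes and 1 of the 4 other primary genes were called in edgeR's test, where 0.78% of all features were called higher. At an unadjusted p under 0.05 the counts were 6, 10 and 3, all higher, against 11.5% of all features, and DESeq2 called 5, 8 and 3 higher, against 2.94%. The called ones were Padi4 at 2.26 (SE 0.36, adjusted p = 0.0253) and Prtn3 at 3.44 (SE 0.62, adjusted p = 0.0345), in 16 and 11 of 22 fits. The median log2 fold changes were 2.55, 2.26 and 2.59 over the 3 lists. Cxcr2, the chemokine receptor of mature neutrophils, was at 133.9 ± 62.7 CPM in intact and 152.2 ± 89.2 CPM in resected spleen, a log2 fold change of 0.18 (SE 0.77).

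**Figure D5:**
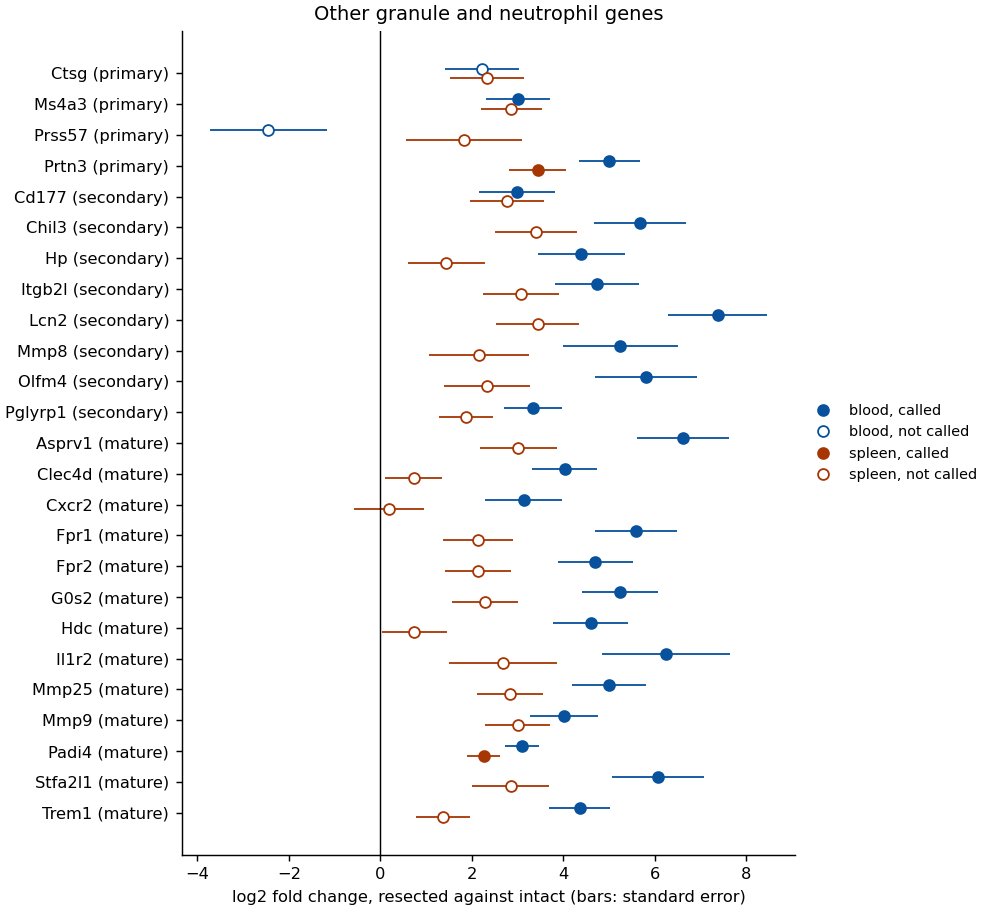
Log2 fold change of the other primary, secondary and mature granule genes, resected against intact, in blood and spleen; bars are the standard error, filled points were called and open points were not. The points of all 8 secondary and 13 mature genes in blood are filled, while in spleen those of Prtn3 and Padi4 are.

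Between the tissues, Prtn3 (1.95, adjusted p = 0.0406), Padi4 (2.96, adjusted p = 0.00119) and Clec4d (2.42, adjusted p = 0.0301) were called higher in blood than in spleen after resection, where 6.28% of all features were. The call held for Padi4 in 22 of 22 fits, for Clec4d in 16 and for Prtn3 in 13. In intact mice Padi4 was called higher in blood (2.12, adjusted p = 0.0084), where 3.86% of all features were, and Cxcr2, G0s2 and Hdc were called lower (-3.24, -3.16 and -3.12, adjusted p = 0.041, 0.0329 and 0.0341), calls that held in 9, 11 and 11 of 22 fits. Padi4 thus had the opposite tissue difference to Ltf, Camp and Ly6g in the same libraries.

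Among 4 transcription factors of granule gene expression, 1 was called in blood and 0 in spleen by edgeR. In spleen 2 had an unadjusted p under 0.05 and DESeq2 called 2 higher. In blood 3 had an unadjusted p under 0.05, among them Cebpa at 0.72 (adjusted p = 0.0963) and Gfi1 with a negative estimate of -1.34 (adjusted p = 0.133). Spi1, the factor PU.1 of myeloid cells, rose in blood by 1.83 (SE 0.42, adjusted p = 0.0135), from 110.7 ± 50.3 to 393 ± 140 CPM. Cebpe, which drives secondary granule genes, was at 3.845 ± 2.46 CPM in intact and 5.202 ± 0.213 CPM in resected blood, a log2 fold change of 0.44 (SE 0.57, adjusted p = 0.627). Cebpe in spleen was at 2.005 ± 0.665 CPM in intact and 7.543 ± 3.71 CPM in resected libraries, with a log2 fold change of 1.91 (SE 0.59, adjusted p = 0.11). Gfi1, a repressor required for neutrophil differentiation, differed between the tissues after resection by -3.28 (SE 0.63, adjusted p = 0.00733), with 4.518 ± 0.844 CPM in blood and 43.84 ± 23.8 CPM in spleen, and Cebpa by 1.5 (SE 0.29, adjusted p = 0.00732) with the higher level in blood.

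By likeness over the 12 libraries, the genes other than the 10 that tracked each class best were, among 10386 genes, Chil3 (Pearson r = 0.901) and Gpx3 (0.900) for the primary class, Plpp1 (0.963) and Adap2 (0.956) for the secondary class, and Pram1 (0.992) and Pglyrp1 (0.992) for the mature class. Chil3 and Pglyrp1 were also on the list of other secondary granule genes, as was Olfm4 (0.987), which ranked 5 for the mature class. None of these 3 genes was among the 5 top genes of the secondary class, and their correlations with that class are not given here. Next for the secondary class came Sdhaf1 (0.949), Tgm1 (0.949) and Hmox1 (0.944). None of its 5 top genes was a listed granule gene, and Hmox1 is on the red pulp macrophage list. The points of these correlations are the 12 libraries, which share 4 groups, so the values describe the pattern across groups.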

How the data were processed

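CD115+ monocyte libraries (12, in 4 groups of 3 pools) were analysed from the deposited per-library tables. The tables hold estimated counts per entry, made by the authors with STAR on GRCm39 according to the submitters' processing notes; the counting program and its handling of shared reads are not given in the sources used here. The labels name a strand-specific library. Entries without a gene name, 1.75% to 4.33% of the counts, were left out. Entries of a gene under its symbol or a RefSeq accession were summed (Csf3r from 3 entries, each other member from 1) and rounded to whole counts.

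One fit of edgeR 4.0.16 in R 4.3.3 (filterByExpr, TMM factors, robust quasi-likelihood test across all genes, Benjamini-Hochberg adjustment over 20135 features) gave all comparisons. Calls needed an adjusted p under 0.05 and a log2 change of more than 1 in either direction. CPM used TMM library sizes, and log2 CPM used a prior count of 2. Standard errors were taken as the size of the log2 fold change over the root of its F statistic. The script was tested on simulated data. Libraries of 1 group differed beyond sampling noise (chi-square per degree of freedom 21.4 to 622), so each counted as 1 replicate. Over these features as a whole, precision was limited by 3 pools per group rather than by depth. For Mpo and Elane, with 8 to 76 counts in intact blood, this was not examined separately.

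Alternatives were RLE factors, DESeq2 1.42.0, no filter, at least 10 counts in all libraries, only the groups compared, the replicate number as a block, haemoglobin genes left out, entries as deposited, and each library left out. Leaving out the third resected library of both tissues was added after seeing the data. The members and gene lists were chosen with earlier results of these data known. All members were named, from each other list described the called genes and those of highest mean level (marker lists by their called genes, counts and sums), and by Pearson correlation over 12 libraries the genes most like each class among those of at least 5 CPM on average.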

Additional observations from a re-analysis of the deposited data

How the results depend on the processing

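The rise in blood held at 7 to 10 of 10 genes called over every setting and every library left out. In spleen the count was 2, against 9 with DESeq2, 1 without a low-count filter, 0 without the third resected library of both tissues and 0 to 4 with 1 library left out. In intact mice 5 genes were called between the tissues, against 3 with RLE factors, without a filter, with only the groups compared, with haemoglobin genes left out and with entries as deposited, 7 with DESeq2, 6 with a minimum of 10 counts, 6 without the third resected library of both tissues and 3 to 6 with 1 library left out. After resection it was 2, against 1 without a filter, 0 without the third resected library of both tissues and 0 to 2 with 1 library left out. For the difference of the resection effect DESeq2 called 3 against 0. The cause of these changes was not tested. Of 1035 values of single genes, 897 kept direction and call, 81 lost the call, 21 gained it and 36 turned direction, all 36 not called in the reported fit and 31 of them between the tissues after resection.

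With the replicate block, 10, 1, 3, 2 and 0 genes were called in the 5 comparisons, against 10, 2, 5, 2 and 0. The labels give no shared litter or day. Over all groups, same-numbered libraries deviated together weakly (r = -0.046 to 0.189, 2 of 18 pairs over 0.1). The 2 pairs over 0.1 joined resected blood and resected spleen. There same numbers gave r = 0.042, 0.131 and 0.189, and unlike numbers -0.186 to 0.0734. Between intact blood and intact spleen, same numbers gave 0.000203, 0.0505 and 0.0345, and unlike numbers -0.0445 to 0.00209. Whether same-numbered blood and spleen libraries came from the same mice was not tested.

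Without the third resected library of both tissues the log2 fold change of Csf3r in spleen was -0.13, and the differences between the tissues after resection were 1.13 for Mpo, 0.71 for Elane, -0.051 for S100a8, -0.33 for S100a9 and -0.17 for Csf3r. That of Ly6g was 0.025 with RLE factors, 0.017 with DESeq2, 0.027 with haemoglobin genes left out and 0.00853 with entries as deposited. With 1 library left out, Csf3r in spleen ran from -0.13 to 0.17. The differences between the tissues after resection ran from -0.55 to 0.96 for Mpo, -0.67 to 0.59 for Elane, -1.68 to 0.20 for Ngp, -0.79 to 1.24 for S100a8, -0.86 to 0.76 for S100a9, -1.06 to 1.29 for Retnlg, -0.34 to 0.63 for Csf3r and -0.35 to 0.23 for Ly6g. The difference of the resection effect ran from -0.098 to 1.89 for Mpo and -0.30 to 1.5 for Elane. Scaling moved the median of all features between the tissues after resection by 0.112 with RLE factors and 0.123 with haemoglobin genes left out, and in intact mice by 0.115 with the latter. Of 80 mean levels, 4 moved by more than 1 SD.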
